A study of Mus musculus with 4 samples.

Results

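The genes described here are 55 genes of mitosis: the kinases and cyclins that start it, and the proteins of the spindle, its checkpoint, the kinetochore, cytokinesis and condensin. They were taken by symbol from a list that was chosen with earlier results of these data known. All 55 were found among the 23874 genes of the count table, and all 55 passed the filter on low counts. Transcript levels came from RNA sequencing of a mouse engineered tissue, neurospheres (clusters of neural stem and progenitor cells) set in Matrigel and kept under medium with 20 ng/ml basic fibroblast growth factor. The EF group received electric stimulation at 150 mV/mm, in daily sessions of 30 min over 3 days, and was then cultured for another 7 days. The noEF group was the same tissue left unstimulated, as the sample labels give it. The series design text instead names suspensions of neural stem cells as controls, so the identity of noEF rests on the sample labels. Each group had 2 libraries here, and the labels speak of 3 replicates in each. The library titled EF replicate 2 (EF 2 below) carries the library name E3. No label says whether the libraries of a group are separate cultures, and the p-values therefore measure the spread between these libraries alone, which may be technical.

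A dividing cell enters mitosis when the kinase CDK1 is activated by B-type cyclins. Condensins and topoisomerase II then compact and untangle the chromosomes, kinesins build the spindle, and kinetochores attach each chromosome to it. The spindle checkpoint holds the cell until all are attached. The anaphase-promoting complex, a ubiquitin ligase, then marks cyclin B and securin for destruction, the chromatids part and the cell is cleaved in cytokinesis. In neural tissue these transcripts are found in cycling progenitors and are low in neurons and other cells that have left the cell cycle.

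Total counts ranged from 33748880 to 34554537 per library, and 1 count was worth 0.0280 to 0.0307 CPM (counts per 1000000 counts of the TMM-scaled library). The 55 genes together took 0.283% and 0.268% of all counts in EF 1 and EF 2, against 0.180% and 0.174% in noEF 1 and noEF 2. Of the markers of the labelled cell type, Sox2, Nes and Pax6 were present in every library, Sox2 at 291 to 380 CPM. Of 6 microglial markers all were at 0 in every library. The 5 endothelial markers summed to 1.40 to 2.27 CPM in EF and 0.743 to 1.23 CPM in noEF, and the 5 fibroblast markers to 0.516 to 0.644 CPM in EF and 0.536 to 0.737 CPM in noEF. In those lists Cdh5 of endothelial cells, Lum of fibroblasts and Cx3cr1, Csf1r and Aif1 of microglia had no count. In bulk tissue, more dividing cells and more mitotic RNA per dividing cell cannot be told apart.

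Most of the mitotic transcripts were higher in EF. In the quasi-likelihood test of edgeR, with p adjusted by Benjamini-Hochberg over all 14263 genes tested, 37 of the 55 were higher in EF, 1 was lower and 17 did not pass the threshold of 0.05. Over all tested genes 3.83% were called higher and 4.99% lower, 8.82% in all. Scaled by library totals instead of TMM, 1138 genes of all tested were higher and 505 lower, against 546 and 712 with TMM, and 43 of the 55 were higher. The difference had a positive sign for 54 of the 55 genes, with a median log2 fold change of 0.62, a 1.53-fold difference, while the median over all tested genes was 0.01. In 53 of the 55 genes both EF libraries lay above both noEF libraries, a pattern that 27.6% of all tested genes showed. The size of the differences was moderate: 30 genes were at least 1.5-fold higher, and 2 of them, Top2a and Ncapg2, at least 2-fold. Without EF 1 the number of higher genes was 24, and without EF 2, noEF 1 or noEF 2 it was 32, 41 and 35. The median log2 fold change stayed between 0.59 and 0.67 in those fits.

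**Figure D1:**
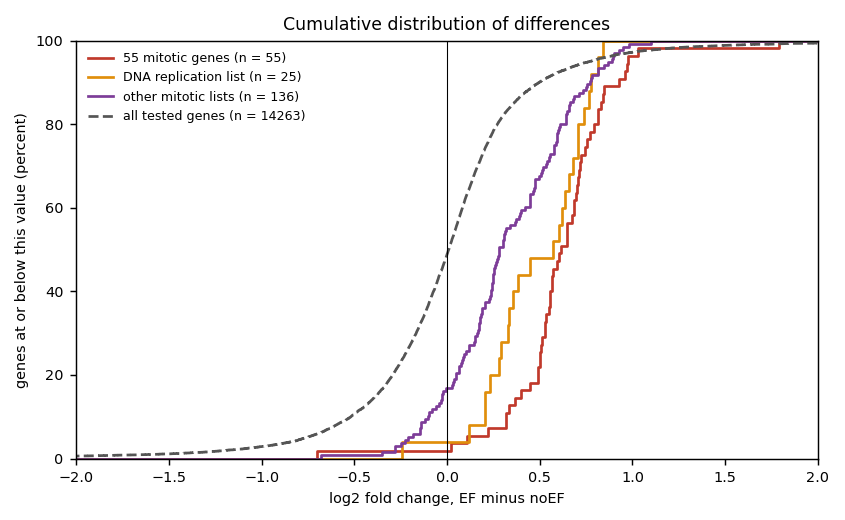
Cumulative share of genes (percent, vertical axis) at or below a given log2 fold change, EF minus noEF (horizontal axis), for the 55 mitotic genes, 25 DNA replication genes, 136 other mitotic genes and 14263 tested genes. The curve of the 55 mitotic genes has its median at 0.62 and that of all tested genes at 0.01.

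For the 17 genes that did not pass, the median level over the 4 libraries was 16.4 CPM, against 34 CPM for the 37 higher genes, and the median standard error of their log2 fold change was 0.17 against 0.12. Of the 17, 12 had a positive difference with an unadjusted edgeR p under 0.05. Over all tested genes the share was 11.3%, which counts called genes too and so is not a like set. Both EF libraries lay above both noEF libraries in 16 of the 17, a pattern that 27.6% of all tested genes showed. The 95% interval of the log2 fold change included 0 for 5 of the 17: Bub3, Cenpa, Spc24, Cit and Ncaph2.

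**Figure D2:**
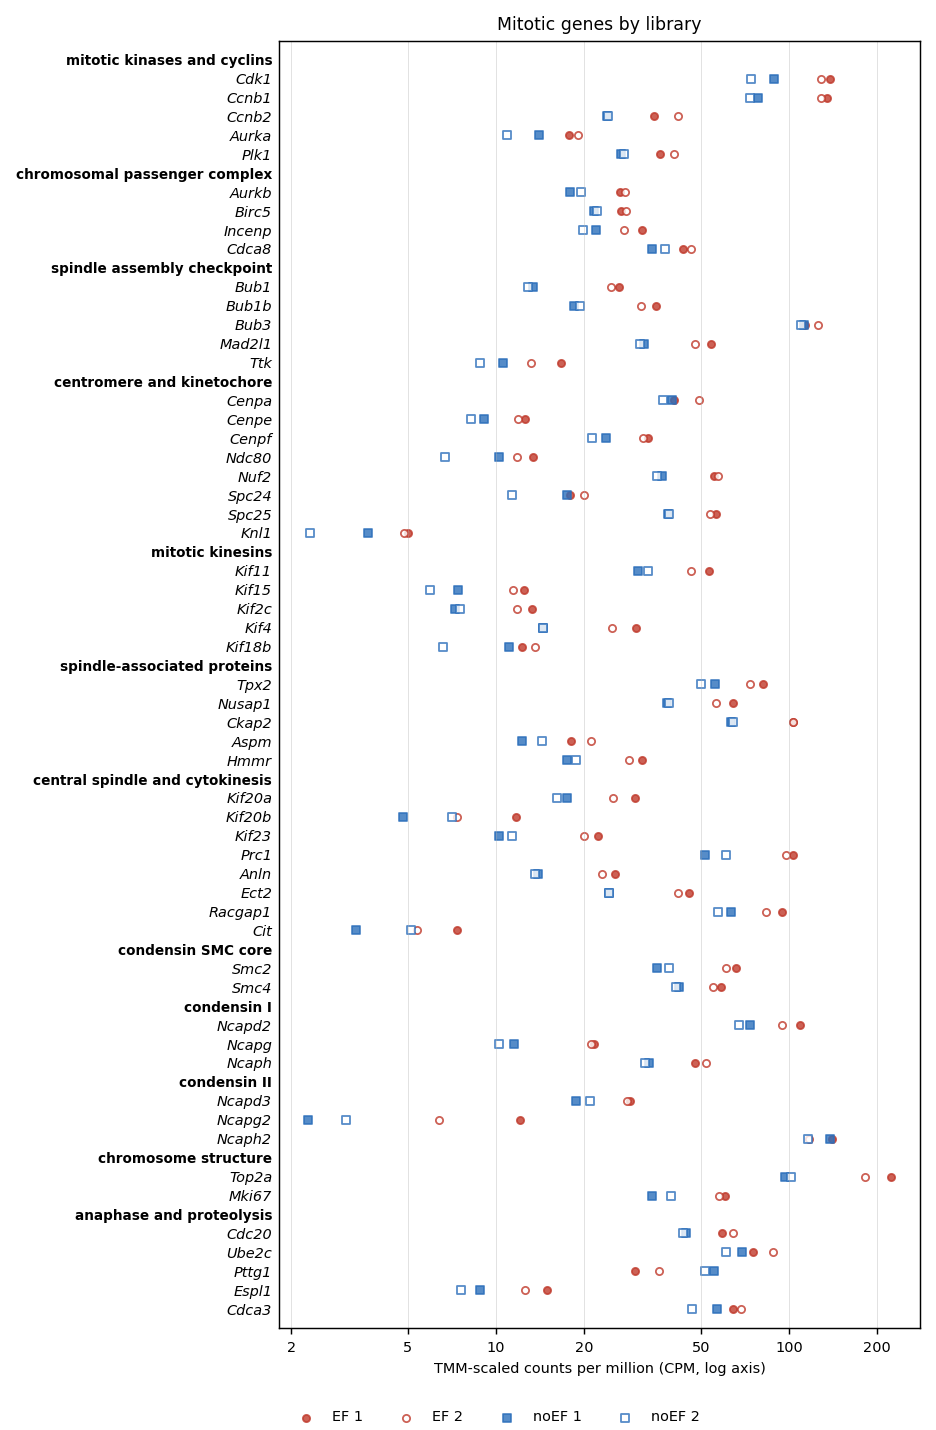
Level of each mitotic gene in each library (TMM-scaled CPM, log axis), with EF 1 and EF 2 as filled and open circles and noEF 1 and noEF 2 as filled and open squares, grouped by role. Circles lie to the right of squares for 53 of the 55 genes, to the left for Pttg1, and they overlap for Ncaph2.

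The promoters of these genes are shown because many of them share short sequence elements. Any link of these elements to the difference between EF and noEF was not tested. As background, the cell cycle genes homology region (CHR) is bound by the MuvB complex. This complex represses such genes in resting cells as part of DREAM and activates them in G2 and mitosis together with B-MYB and FOXM1. Only the CHR spelling TTTGAA was searched here, so a window without it may hold a CHR of another spelling. The CCAAT box is bound by NF-Y. Promoter windows from RefSeq on GRCm38.p6, 250 bases before to 50 bases after a start site, matched 49 of the 55 genes with 53 windows, and the genes with no window were Aurkb, Incenp, Spc24, Tpx2, Kif20a and Smc4. The letters TTTGAA were present on either strand in 41 of the 53 windows (77.4%), against 17.9% of all 32851 windows and 11.8% of the 13512 windows of tested genes. CCAAT was present on either strand in 36 of the 53 (67.9%), against 37.4% of all windows and 37.7% of those of tested genes. In related lists, CCAAT was present in 56.9% of the windows of other mitotic genes and 59.1% of those of DNA replication genes, and TTTGAA in 28.5% and 18.2% of them. Both were present in 33 of the 53 (62.3%), against 6.95% of all windows, and the matches of the 2 motifs could overlap. Genes that passed and genes that did not both held matches: TTTGAA occurred in 26 of 32 higher genes with a window and in 12 of 16 that were not called. Such a match is a description of letters and not a measured binding site. The 120 bases before the start site follow for 7 genes that were higher in EF, for Ncaph2, which did not pass, and for Pttg1, the gene that was lower. They are written 5′ to 3′ on the gene's strand, with TTTGAA (or its reverse TTCAAA) and CCAAT (or ATTGG) in capitals.
Top2a, chr11:99024190-99024309, minus strand: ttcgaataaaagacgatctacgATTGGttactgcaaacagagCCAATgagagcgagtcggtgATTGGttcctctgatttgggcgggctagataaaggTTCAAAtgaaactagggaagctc
Cdk1, chr10:69352913-69353032, minus strand: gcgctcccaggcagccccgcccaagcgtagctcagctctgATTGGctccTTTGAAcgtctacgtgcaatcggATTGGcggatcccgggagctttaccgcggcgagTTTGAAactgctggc
Ccnb1, chr13:100786487-100786606, minus strand: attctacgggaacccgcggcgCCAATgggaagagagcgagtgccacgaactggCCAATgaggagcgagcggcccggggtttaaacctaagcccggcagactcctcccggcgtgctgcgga
Kif11, chr19:37376262-37376381, plus strand: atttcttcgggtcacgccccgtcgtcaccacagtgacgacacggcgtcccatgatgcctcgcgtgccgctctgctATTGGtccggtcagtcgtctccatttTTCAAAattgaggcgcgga
Cdc20, chr4:118437344-118437463, minus strand: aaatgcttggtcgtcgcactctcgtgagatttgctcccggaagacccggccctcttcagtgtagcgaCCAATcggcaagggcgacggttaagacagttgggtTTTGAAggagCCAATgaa
Espl1, chr15:102296173-102296292, plus strand: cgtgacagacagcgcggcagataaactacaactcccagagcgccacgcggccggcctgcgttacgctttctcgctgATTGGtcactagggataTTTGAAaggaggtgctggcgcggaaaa
Ncapg2, chr12:116405316-116405435, plus strand: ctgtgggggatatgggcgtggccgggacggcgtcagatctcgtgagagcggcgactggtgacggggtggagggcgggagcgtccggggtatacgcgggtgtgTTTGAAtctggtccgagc
Ncaph2, chr15:89355599-89355718, plus strand: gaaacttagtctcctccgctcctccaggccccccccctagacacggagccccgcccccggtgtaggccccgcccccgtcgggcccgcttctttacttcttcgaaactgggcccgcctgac
Pttg1, chr11:43425982-43426101, minus strand: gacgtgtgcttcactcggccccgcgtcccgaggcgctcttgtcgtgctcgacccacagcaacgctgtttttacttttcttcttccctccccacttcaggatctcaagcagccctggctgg
In the printed stretch of Top2a, which encodes topoisomerase II alpha, 3 CCAAT boxes began 98, 78 and 58 bases before the start site and a CHR began 23 bases before it. That of Cdk1 held 2 CCAAT boxes and 2 CHR matches, the nearer of them 15 bases before the start site. Ccnb1 had CCAAT boxes at 99 and 67 bases and no TTTGAA in the window, and Ncapg2 had a CHR at 18 bases and no CCAAT. Neither motif occurred in the windows of Ncaph2 and Pttg1. The same held for Mad2l1, Ncaph, Nuf2 and Nusap1, which were higher in EF, and for Birc5 and Cit. The RefSeq start site used for Pttg1 lies inside its annotated gene span, 43420250 to 43426251 on the minus strand. Its printed stretch is therefore within that span, and bases before the annotated 5′ end were not searched.

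Of the 5 mitotic kinases and cyclins, 4 were higher in EF and 1, Aurka, did not pass. Cdk1, the kinase that drives entry into mitosis (ENSMUSG00000019942, GRCm38 chromosome 10, 69335146 to 69352938), had 138 and 129 CPM in the EF libraries and 89.3 and 74.5 CPM in the noEF libraries. The groups were well apart, and its log2 fold change was 0.71 (SE 0.10, edgeR adjusted p = 6.18e-04). Its activating partner Ccnb1, cyclin B1 (ENSMUSG00000041431, chromosome 13, 100778650 to 100786570), had 135 and 128 CPM in EF against 78.6 and 74.0 CPM in noEF. It was 1.73-fold higher, or 0.79 on the log2 scale (SE 0.09, edgeR adjusted p = 1.05e-04). Scaled to exon length, cyclin B1 stood at 1.147 and 1.163 times Cdk1 in EF and at 1.029 and 1.162 times in noEF, ranges that overlap. Ccnb2, the second B-type cyclin, and Plk1, the polo-like kinase of spindle poles and kinetochores, were higher by log2 values of 0.68 and 0.51 (edgeR adjusted p = 0.00616 and 0.0226). Without EF 2 both lost their call (edgeR adjusted p = 0.0701 and 0.143), and 2 genes of this group remained higher. Aurka, the Aurora kinase of spindle poles, had 17.8 and 19 CPM in EF and 14 and 10.9 CPM in noEF, and differed by 0.56 in log2 (SE 0.17, edgeR adjusted p = 0.0566). It passed without noEF 1 (0.76, edgeR adjusted p = 0.0188) and was at 0.39 without noEF 2 (edgeR adjusted p = 0.252).

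The chromosomal passenger complex holds Aurora B at the inner centromere, where it corrects faulty attachments. Of its 4 genes 2 were higher. Aurkb, its kinase, had 26.6 and 27.6 CPM in EF against 17.8 and 19.6 CPM in noEF (log2 fold change 0.53, SE 0.14, edgeR adjusted p = 0.0290). Incenp, the scaffold, had 31.4 and 27.3 CPM in EF against 21.9 and 19.8 CPM in noEF (0.49, SE 0.14, edgeR adjusted p = 0.0427). Neither call was stable to the loss of a library. Aurkb did not pass without EF 1, EF 2 or noEF 1 (edgeR adjusted p = 0.0904, 0.111 and 0.133), nor Incenp without EF 1, EF 2 or noEF 2 (0.316, 0.05003 and 0.114), so 0 of the 4 were higher without EF 1 or without EF 2, and 1 without either noEF library. Birc5, survivin, had 26.7 and 27.7 CPM in EF and 21.6 and 22.2 CPM in noEF, and did not pass (0.32, SE 0.14, edgeR adjusted p = 0.169). Cdca8, borealin, had 43.3 and 46.2 CPM in EF and 34.1 and 37.8 CPM in noEF (0.32, SE 0.12, edgeR adjusted p = 0.119). In both, the EF libraries lay above the noEF libraries without overlap, as in 27.6% of all tested genes.

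Of 5 spindle assembly checkpoint genes, 3 were higher. Bub1, a checkpoint kinase of kinetochores, had 26.3 and 24.7 CPM in EF against 13.3 and 12.9 CPM in noEF, a 1.94-fold difference (log2 fold change 0.96, SE 0.15, edgeR adjusted p = 0.00118). Bub1b, which encodes BubR1, a part of the complex that inhibits CDC20, had 35.1 and 31.3 CPM in EF against 18.4 and 19.4 CPM in noEF (0.81, SE 0.14, edgeR adjusted p = 0.00205). Mad2l1, the checkpoint protein MAD2, was higher by 0.70 (edgeR adjusted p = 0.00244). These 3 kept their call in each of the 13 alternative analyses. Bub3, the adaptor that carries BUB1 and BubR1 to kinetochores, was nearly level: 114 and 126 CPM in EF and 113 and 110 CPM in noEF. Its log2 fold change was 0.11 with a 95% interval of -0.08 to 0.30 (edgeR adjusted p = 0.520). Ttk, the kinase MPS1, had 16.6 and 13.1 CPM in EF and 10.6 and 8.83 CPM in noEF (0.62, SE 0.19, edgeR adjusted p = 0.0573), and it passed without EF 2 or without noEF 1 (0.78 and 0.75, edgeR adjusted p = 0.0276 and 0.0328). Without EF 1 or noEF 2 it was at 0.44 and 0.49 (edgeR adjusted p = 0.400 and 0.163).

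Of 8 centromere and kinetochore genes 3 were higher, and all 8 had both EF libraries above both noEF libraries. That pattern was shown by 27.6% of all tested genes. The NDC80 complex, which grips the microtubule end, has 4 subunits in the list, and 2 of them were higher. Nuf2 had 55.5 and 57.3 CPM in EF against 36.8 and 35.3 CPM in noEF (log2 fold change 0.65, SE 0.11, edgeR adjusted p = 0.00237). Spc25 had 56.3 and 53.8 CPM in EF against 38.8 and 38.9 CPM in noEF (0.50, SE 0.11, edgeR adjusted p = 0.0114). The other 2 subunits were less abundant and more scattered. Ndc80 had 13.4 and 11.7 CPM in EF and 10.2 and 6.72 CPM in noEF (0.57, SE 0.22, edgeR adjusted p = 0.120), and Spc24 had 17.9 and 19.9 CPM in EF and 17.4 and 11.3 CPM in noEF (0.40, SE 0.20, edgeR adjusted p = 0.248). In both, noEF 1 lay close to the EF libraries, and without it they passed at 0.91 and 0.74 (edgeR adjusted p = 0.0140 and 0.0210), which made 5 higher genes in this group. Without noEF 2 they were at 0.30 and 0.11 (edgeR adjusted p = 0.486 and 0.801), so the size of both differences rests on which noEF library is kept. Without EF 1 there was 1, since Spc25 and Cenpf lost their call (edgeR adjusted p = 0.0894 and 0.144).

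Cenpf, a large protein of the outer kinetochore, was higher by 0.53 (edgeR adjusted p = 0.0245), but also lost its call without EF 2 or noEF 2 (edgeR adjusted p = 0.0624 and 0.0710). Cenpa, the histone H3 variant that marks centromeres, had 40.6 and 49.2 CPM in EF and 39.8 and 37.1 CPM in noEF. The difference of 0.22 (SE 0.13, edgeR adjusted p = 0.310) did not pass, and EF 1 and noEF 1 nearly touched. Cenpe, a kinetochore motor of the kinesin family, had 12.5 and 11.9 CPM in EF and 9.06 and 8.21 CPM in noEF (0.50, SE 0.19, edgeR adjusted p = 0.107). Knl1, the scaffold on which checkpoint proteins gather, had 4.99 and 4.84 CPM in EF and 3.66 and 2.32 CPM in noEF (0.72, SE 0.32, edgeR adjusted p = 0.182). Its log2 fold change was as large as that of Cdk1, at a much larger error.

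Of 5 mitotic kinesins 4 were higher. Kif4, a motor carried on chromosome arms, had 29.97 and 24.96 CPM in EF against 14.5 and 14.5 CPM in noEF (log2 fold change 0.93, SE 0.15, edgeR adjusted p = 0.00175). Kif11, the motor Eg5 that pushes the spindle poles apart, had 53.4 and 46.2 CPM in EF against 30.6 and 33.1 CPM in noEF (0.65, SE 0.12, edgeR adjusted p = 0.00497). Kif15, which can share that task, and Kif2c, the microtubule depolymerase MCAK, were higher by 0.84 and 0.76 (edgeR adjusted p = 0.0178 and 0.0235). Without EF 1 only Kif4 passed, with Kif11, Kif15 and Kif2c at edgeR adjusted p-values of 0.0589, 0.1004 and 0.163. Kif15 also missed without noEF 2 (0.0592) and Kif2c without noEF 1 (0.0650). Kif18b, a motor of astral microtubule ends, had 12.3 and 13.6 CPM in EF and 11.03 and 6.57 CPM in noEF (0.56, SE 0.23, edgeR adjusted p = 0.163). That difference was 0.98 without noEF 1 (edgeR adjusted p = 0.00609) and 0.23 without noEF 2 (edgeR adjusted p = 0.613).

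Of 5 spindle-associated genes 4 were higher. Ckap2, a microtubule-stabilising protein, had 103 and 103 CPM in EF against 63.2 and 64.3 CPM in noEF, with replicates almost equal (log2 fold change 0.69, SE 0.09, edgeR adjusted p = 3.09e-04). Nusap1, which binds and bundles spindle microtubules, had 64.6 and 56.5 CPM in EF against 38.3 and 39.1 CPM in noEF (0.65, SE 0.11, edgeR adjusted p = 0.00269). Hmmr and Tpx2, an activator of Aurora A, were higher by 0.72 and 0.55 (edgeR adjusted p = 0.00527 and 0.00488), and Tpx2 narrowly missed the threshold without EF 1 (0.0529). Aspm, a spindle pole protein whose loss causes microcephaly in humans, had 18.01 and 21.1 CPM in EF and 12.3 and 14.3 CPM in noEF. It did not pass (0.56, SE 0.17, edgeR adjusted p = 0.0512), but did without noEF 2 (0.67, edgeR adjusted p = 0.0258), and was at 0.44 without EF 2 (edgeR adjusted p = 0.223).

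Of 8 genes of the central spindle and cytokinesis, 6 were higher. Prc1, which bundles the antiparallel microtubules between the parting chromosomes, had 104 and 97.5 CPM in EF against 51.8 and 61.2 CPM in noEF, 1.78-fold higher (log2 fold change 0.83, SE 0.10, edgeR adjusted p = 2.23e-04). Ect2, the exchange factor that switches on RhoA at the cleavage plane, had 45.5 and 41.8 CPM in EF against 24.4 and 24.3 CPM in noEF (0.84, SE 0.12, edgeR adjusted p = 7.85e-04). Kif23 and Racgap1, which form the centralspindlin complex, were higher by 0.98 and 0.56 (edgeR adjusted p = 0.00205 and 0.00351). Anln, the cleavage furrow protein anillin, was higher by 0.81 and Kif20a, the motor that carries the passenger complex to the midzone, by 0.71 (edgeR adjusted p = 0.00408 and 0.00867). Of these 6, Kif20a lost its call without EF 1 (edgeR adjusted p = 0.0831). Kif20b, a motor of the late midzone, had 11.7 and 7.36 CPM in EF and 4.82 and 7.05 CPM in noEF (0.69, SE 0.27, edgeR adjusted p = 0.135). It passed without EF 2 or noEF 2, at 0.98 in each (edgeR adjusted p = 0.0266 and 0.0166), and was at 0.31 without EF 1 and 0.44 without noEF 1 (edgeR adjusted p = 0.733 and 0.428). Cit, citron kinase, was among the least abundant members, with 7.37 and 5.39 CPM in EF and 3.32 and 5.14 CPM in noEF (0.59, SE 0.29, edgeR adjusted p = 0.234).

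Log2 fold changes of the condensin subunits ranged from 0.02 to 1.79. Condensin I and II share the SMC core of Smc2 and Smc4 and differ in their other subunits, condensin II working in the nucleus from prophase and condensin I after the envelope breaks down. Of the 8 genes 7 were higher. Smc2 had 66.1 and 61.1 CPM in EF against 35.5 and 39.1 CPM in noEF (log2 fold change 0.77, SE 0.11, edgeR adjusted p = 6.81e-04). Smc4 had 58.7 and 55.02 CPM in EF against 42.2 and 41.1 CPM in noEF (0.45, SE 0.11, edgeR adjusted p = 0.0194). So the core subunits, which pair in the protein, had log2 fold changes of unequal size, and Smc4 was not called without EF 1 (edgeR adjusted p = 0.167).

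All 3 condensin I subunits were higher. Ncapg had 21.6 and 21.03 CPM in EF against 11.6 and 10.2 CPM in noEF (log2 fold change 0.97, SE 0.16, edgeR adjusted p = 0.00198), and Ncapd2 had 109 and 95.02 CPM in EF against 73.8 and 67.4 CPM in noEF (0.53, SE 0.10, edgeR adjusted p = 0.00452). Ncaph, the subunit that closes the SMC ring, was higher by 0.61 (edgeR adjusted p = 0.00529). Ncapd2 narrowly lost its call without EF 1 (edgeR adjusted p = 0.0596).

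In condensin II, Ncapg2 had the largest difference of the 55 genes and Ncaph2 the smallest. Ncapg2 (ENSMUSG00000042029, chromosome 12, 116405402 to 116463731) had 432 and 223 counts in EF against 74 and 103 in noEF, which is 12.1 and 6.39 CPM against 2.27 and 3.06 CPM. Both EF libraries were above both noEF libraries, but EF 1 stood well above EF 2. Its log2 fold change was 1.79 (SE 0.32, edgeR adjusted p = 0.00469), and without EF 1 it was 1.26 (SE 0.38, edgeR adjusted p = 0.0486). Ncapd3 had 28.6 and 27.97 CPM in EF against 18.8 and 20.9 CPM in noEF (0.51, SE 0.14, edgeR adjusted p = 0.0331). That call was lost in 6 of the 13 alternative analyses, among them the fits without EF 1, EF 2 or noEF 1. It was also lost after correction for exon length and GC content (edgeR adjusted p = 0.0593). Over the 13 alternatives its log2 fold change ranged from 0.40 to 0.60.

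Ncaph2 (ENSMUSG00000008690, chromosome 15, 89355719 to 89372826) had 140 and 117 CPM in EF and 138 and 116 CPM in noEF. The groups overlapped fully, and the log2 fold change was 0.02 with a 95% interval of -0.21 to 0.26 (edgeR adjusted p = 0.929). Its exons share 535 bases with Tymp and 829 bases with Sco2 on the opposite strand, which ranged from 1.79 to 4.41 CPM over the libraries. Per kilobase of exon, Ncapg2 stood at 0.0364 and 0.0230 times Ncaph2 in EF and at 0.00697 and 0.0112 times in noEF. This shift follows from the largest and the smallest difference of the list and is not a separate result.

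The 2 genes of chromosome structure were both higher. Top2a (ENSMUSG00000020914, chromosome 11, 98992943 to 99024189), the topoisomerase that untangles sister chromatids, had 224 and 182 CPM in EF against 97.1 and 102 CPM in noEF. It was the most abundant of the 55 genes in EF in CPM and the one with the smallest p, and without EF 1 its log2 fold change was 0.87 in place of 1.03 (SE 0.12 and 0.10, edgeR adjusted p = 1.01e-06 and 5.01e-05). Mki67, the chromosome coat protein used as a proliferation marker, had 60.7 and 57.9 CPM in EF against 34.1 and 39.6 CPM in noEF (0.69, SE 0.12, edgeR adjusted p = 0.00210). Both genes kept their call in all 13 alternative analyses.

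Of the 5 genes of anaphase and protein destruction, 2 were higher and 1 was lower. Pttg1, securin, which holds separase inactive until anaphase (ENSMUSG00000020415, chromosome 11, 43420250 to 43426251), had 29.7 and 36.1 CPM in EF against 55.4 and 51.6 CPM in noEF. It was the one gene of the list with both EF libraries below both noEF libraries, a pattern shown by 26.8% of all tested genes. Its log2 fold change was -0.70 (SE 0.13, edgeR adjusted p = 0.00323), it kept its call in all 13 alternatives, and it was at -0.57 without EF 1 and -0.85 without EF 2. Espl1, separase, the protease that cuts cohesin to part the chromatids (ENSMUSG00000058290, chromosome 15, 102296266 to 102324357), had 14.9 and 12.6 CPM in EF against 8.79 and 7.61 CPM in noEF (0.74, SE 0.19, edgeR adjusted p = 0.0258). It lost its call without EF 1 (0.61, edgeR adjusted p = 0.195) or noEF 2 (0.64, edgeR adjusted p = 0.0640). Per kilobase of exon, securin transcripts stood at 8.74 and 12.6 times those of separase in EF and at 27.6 and 29.7 times in noEF. With 2 libraries per group an exact permutation test of that ratio cannot reach 0.05, and none was run.

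Cdc20, which activates the anaphase-promoting complex, had 59.3 and 64.2 CPM in EF against 44.6 and 43.4 CPM in noEF (log2 fold change 0.49, SE 0.11, edgeR adjusted p = 0.0108). It lost its call without EF 2 (edgeR adjusted p = 0.0750). Ube2c, the ubiquitin-conjugating enzyme that starts its chains, had 75.5 and 88.2 CPM in EF and 69.0 and 60.8 CPM in noEF (0.34, SE 0.11, edgeR adjusted p = 0.0667). Cdca3 had 64.7 and 68.8 CPM in EF and 56.9 and 46.7 CPM in noEF (0.37, SE 0.11, edgeR adjusted p = 0.0573). Neither passed, although their groups did not overlap, and both passed without noEF 1 (edgeR adjusted p = 0.0178 and 0.00440), which made 4 higher genes in this group. Ube2c was at 0.22 without EF 2 and Cdca3 at 0.23 without noEF 2 (edgeR adjusted p = 0.381 and 0.271). Without EF 1, EF 2 or noEF 2 the group had 1 higher gene.

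**Figure D3:**
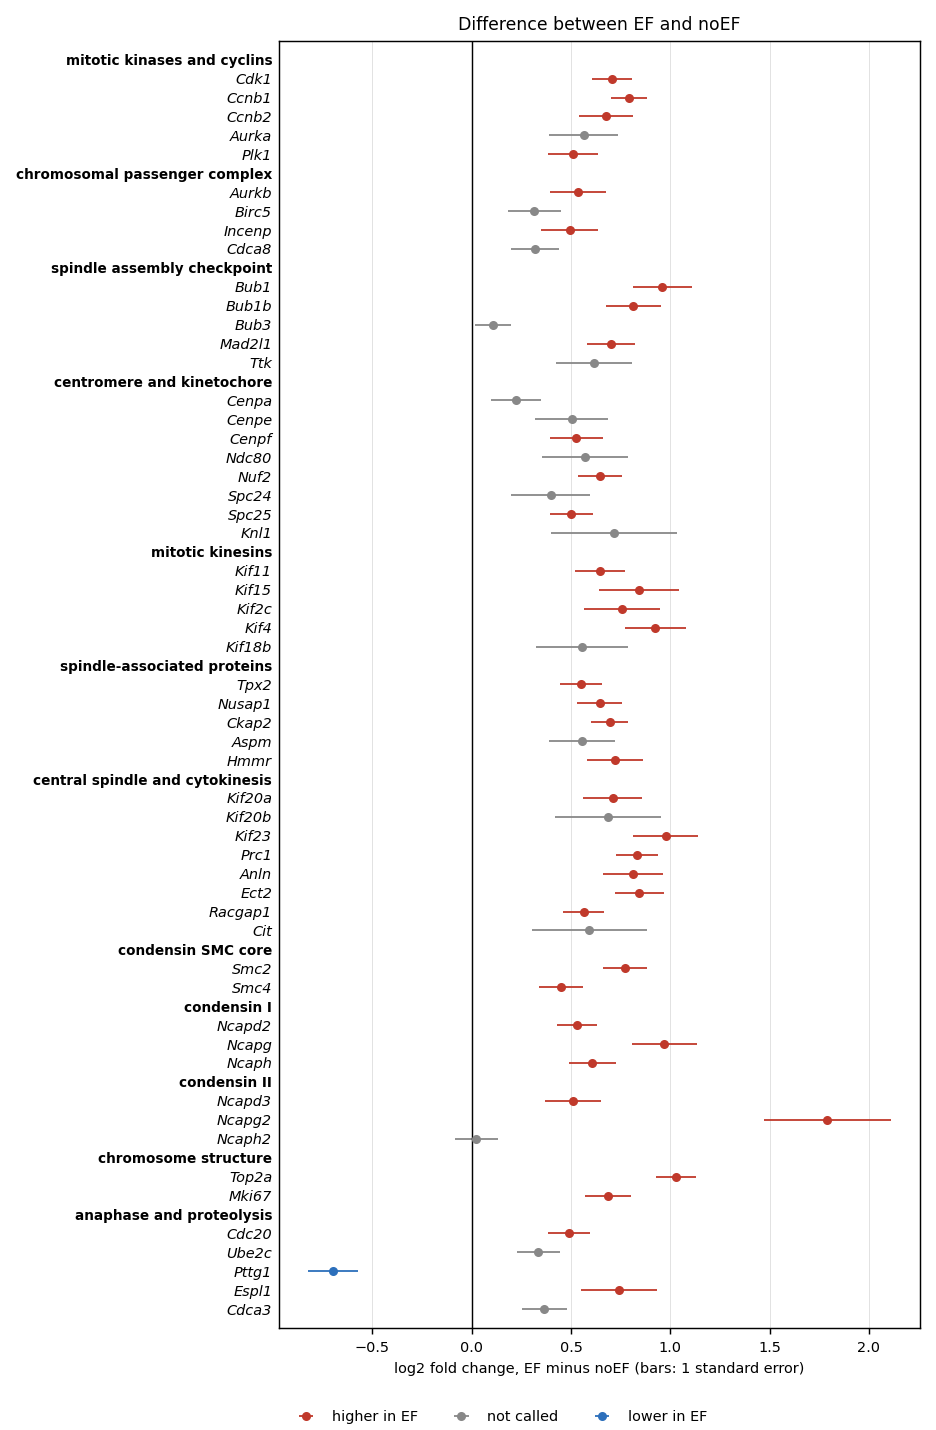
Log2 fold change, EF minus noEF (horizontal axis), with bars of 1 standard error, for each of the 55 genes grouped by role; colour gives the call at an edgeR adjusted p under 0.05. Most points lie between 0.3 and 1.0, with Ncapg2 at 1.79 to the right, Ncaph2 at 0.02 and Pttg1 at -0.70.

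Within the groups, EF 1 was above EF 2 for 38 of the 55 genes and below it for 17. In noEF, noEF 1 was above noEF 2 for 33 genes and below it for 22. The same shares over all tested genes are not given here. The level summed over the 55 genes was 2744 and 2612 CPM in EF and 1862 and 1785 CPM in noEF. Per kilobase of exon, the most abundant genes in EF were Cdc20 at 33.1 CPM, Ckap2 at 32.1, Ube2c at 31.5, Ccnb1 at 31.3 and Ncaph2 at 30.7. The same genes stood at 23.5, 19.8, 24.9, 18.1 and 30.2 CPM per kilobase in noEF, so that Ncaph2 led there. Cit and Knl1 were lowest in EF, at 0.388 and 0.575 CPM per kilobase, and Ncapg2 followed at 0.930. Across the 55 genes the log2 fold change and the mean CPM had Spearman's rho of -0.27, a description over genes that share the same 4 libraries.

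**Figure D4:**
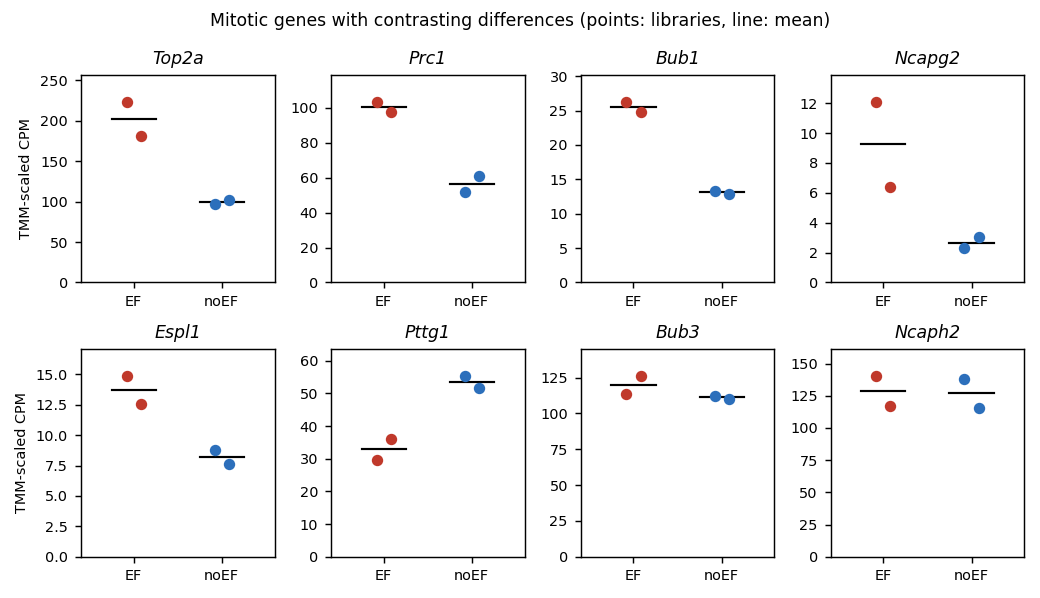
Level in each library (points, TMM-scaled CPM, axis from 0) and group mean (line) for 8 genes. Top2a, Prc1, Bub1, Ncapg2 and Espl1 were higher in EF, Pttg1 was lower, and Bub3 and Ncaph2 had log2 fold changes of 0.11 and 0.02 that did not pass.

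Exons of 9 of the 55 genes overlap those of another gene, always on the opposite strand, and the strand setting of the counting is not given in the sources used here, so reads from shared stretches cannot be assigned for certain. Of these 9, 6 were higher: Kif4 shares 832 bases with Pdzd11, Prc1 911 with Rccd1, Ncapg 944 with Lcorl, Kif20a 1271 with Cdc23, Nusap1 172 with Oip5 and Cdc20 53 with Elovl1. None of these partners passed the test, with log2 fold changes of -0.29, -0.12, 0.12, 0.24, 0.58 and -0.23. Pdzd11 (52.1 to 69.9 CPM), Lcorl (24.5 to 30.1) and Cdc23 (64.9 to 80.9) were above Kif4, Ncapg and Kif20a in every library. Elovl1 was at 45.0 to 57.5 CPM, near Cdc20, while Rccd1 and Oip5 were at 6.02 CPM or less. The share of such reads in the members was not tested. Of the other 3, Cdca8 overlaps 9930104L06Rik and Ube2c overlaps Tnnc2, which was not tested. Processed copies of Ccnb1, Ccnb2 and Kif4 are annotated in the mouse genome and could share reads with them.

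Of 136 mitotic genes outside the list, 25 were higher and 0 lower by edgeR, with a median log2 fold change of 0.28. Beside them stood 3.83% higher and 4.99% lower over all tested genes. At an unadjusted p under 0.05, 66 were higher and 3 lower, a threshold that 11.3% of all tested genes passed as higher and 12.5% as lower. Without EF 1 there were 13 higher, and when scaled by library totals 51. The 2 genes with the smallest p are named for each group below.

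Of 34 other centromere and kinetochore genes 3 were higher, among them Hjurp, the chaperone that deposits CENP-A, at 87.7 and 83.2 CPM in EF against 55.2 and 61.1 CPM in noEF (edgeR adjusted p = 0.00312). Cenpi, of the inner kinetochore, was higher by 0.81 (edgeR adjusted p = 0.00562). Without noEF 1 or noEF 2 the group had 5 and 8 higher genes. Of 14 cohesin genes 3 were higher, with Esco2, the acetyltransferase that makes cohesin hold sister chromatids in S phase, at 16.1 and 15.5 CPM in EF against 6.70 and 8.03 CPM in noEF (1.10, SE 0.19, edgeR adjusted p = 0.00205). Cdca5, sororin, which protects that cohesion, was higher by 0.77 (edgeR adjusted p = 0.0161). Without EF 1 there was 1 higher cohesin gene and without noEF 2 there were 5.

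The anaphase-promoting complex was the group with a median nearest 0, at -0.02, and 8 of its 17 genes had a positive sign. Its 2 higher genes were Fbxo5, the inhibitor EMI1, at 10.98 and 11.9 CPM in EF against 5.13 and 7.61 CPM in noEF (0.85, SE 0.22, edgeR adjusted p = 0.0277), and the subunit Cdc27 at 0.47 (edgeR adjusted p = 0.0300). Without EF 1 or noEF 1 there were 0 higher genes and without EF 2 there was 1 higher and 1 lower. Cdc20 was called higher while most core subunits of its complex did not pass. Of 36 other spindle and centrosome genes 7 were higher, led by Ckap2l, a spindle protein of neural progenitors, at 41.3 and 38.4 CPM in EF against 22.2 and 20.5 CPM in noEF (0.90, SE 0.13, edgeR adjusted p = 6.64e-04). Plk4, the kinase that starts centriole duplication, was higher by 0.95 (edgeR adjusted p = 0.00365). Without EF 1 there were 3 higher genes and without noEF 2 there were 12.

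Of 19 genes of mitotic entry and exit 5 were higher. Ccna2, cyclin A2, had 125 and 127 CPM in EF against 72.5 and 77.9 CPM in noEF (0.75, SE 0.09, edgeR adjusted p = 1.57e-04), and Pbk, a mitotic kinase, was higher by 0.59 (edgeR adjusted p = 0.00131). Of 16 regulators of mitotic transcription 5 were higher. Tfdp1, the partner of E2F factors, had 120 and 130 CPM in EF against 87.4 and 83.3 CPM in noEF (0.55, SE 0.09, edgeR adjusted p = 0.00177), and Rbl1, the pocket protein p107, was higher by 0.81 (edgeR adjusted p = 0.00210). Foxm1 and Mybl2, which encode FOXM1 and B-MYB and are named here after their values were seen, were higher by 0.65 and 0.93 (edgeR adjusted p = 0.00553 and 0.00694). Lin9, Lin54, Rbbp4, Lin37 and Lin52, which encode subunits of MuvB, had log2 fold changes of 0.64, 0.45, 0.19, -0.14 and -0.23. None of them passed (edgeR adjusted p = 0.0638, 0.0579, 0.170, 0.723 and 0.423). Of the 16 regulators, 12 had a positive sign and 4 a negative one. Without EF 1 there were 2 higher genes in this group. Of 25 DNA replication genes 14 were higher and 0 lower, with a median of 0.57, and 9 were higher without EF 1.

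Some markers of cell types, those of the labelled neural stem and progenitor cells included, also differed between the groups. Their part in the result was not tested. Over all tested genes 3.83% were called higher and 4.99% lower. At an unadjusted edgeR p under 0.05 these shares were 11.3% and 12.5%. Of 8 neural stem and progenitor markers 2 were lower and 0 higher, and the list summed to 5008 and 5313 CPM in EF against 6778 and 6397 CPM in noEF. The lower genes were Fabp7, a radial glial fatty acid-binding protein, at -0.50 (edgeR adjusted p = 0.00195), and Sox1 at -0.46 (edgeR adjusted p = 0.0287). Fabp7 had 2281 and 2449 CPM in EF against 3553 and 3157 CPM in noEF, and Vim 2176 and 2291 CPM in EF against 2616 and 2603 CPM in noEF, which is most of the difference between the sums. Sox2 had 291 and 321 CPM in EF and 358 and 380 CPM in noEF (-0.27, edgeR adjusted p = 0.0597), while Nes and Pax6 had log2 fold changes of 0.14 and 0.12. Of 6 astrocyte markers 3 were lower, with list sums of 4127 and 3837 CPM in EF against 4229 and 4445 CPM in noEF. Gfap was among them at 237 and 241 CPM in EF against 641 and 671 CPM in noEF (edgeR adjusted p = 1.06e-07). Aqp4 was another, at 67.3 and 62.8 CPM in EF against 89.3 and 97.6 CPM in noEF, and Gja1 was lower by a log2 value of -0.62. Slc1a3, the most abundant of the list, had 2992 and 2733 CPM in EF against 2484 and 2638 CPM in noEF (0.16, edgeR adjusted p = 0.248). The sums thus join differences of opposite sign. Aldh1l1 and S100b had log2 fold changes of 0.03 and -0.02. None of 6 tested neuronal markers passed in edgeR, with 0 higher and 1 lower at an unadjusted p under 0.05, and sums of 72.1 and 80.8 CPM in EF and 80.0 and 81.7 CPM in noEF. Their defining genes Tubb3, Rbfox3 and Syn1 ranged from 0.672 to 13.9 CPM over the libraries. Of 5 tested oligodendrocyte lineage markers 1, Pdgfra, was lower, with sums of 419 and 471 CPM in EF and 435 and 432 CPM in noEF. Ependymal markers summed to 26.3 and 23.04 CPM in EF and 31.7 and 30.2 CPM in noEF, nearly all of it from Foxj1, and 0 of 3 tested passed in edgeR, with 1 lower at an unadjusted p under 0.05.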

How the data were processed

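RNA was sequenced from 4 libraries, 2 of stimulated tissue (EF) and 2 of unstimulated tissue (noEF), grouped by the sample titles. Per the labels' protocols, oligo(dT) capture was used. The values the authors deposited are raw counts per gene, whole numbers with unequal totals per library. The submitters' processing notes list HISAT2 2.0.4, StringTie 2.2.1, DESeq2 1.44.0 and GRCm38, without role or order, and the counting step is not given in the sources used here.

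Counts were tested with edgeR 4.0.16 in R 4.3.3: filterByExpr (minimum count 10, minimum total 15), TMM scaling, the quasi-likelihood F test with robust fits, and Benjamini-Hochberg adjustment over 14263 genes, and a threshold of 0.05 for calls. Fold changes are EF over noEF, each SE was obtained by dividing the absolute log2 value by the square root of F, and 95% intervals use the fit's t quantiles. CPM values use TMM-scaled library sizes. The code was tested on simulated data. Alternatives are in the closing section and used limma 3.58.1 and DESeq2 1.42.0 beside edgeR. Gene positions and exon lengths are those of GENCODE M21 (GRCm38), matched for 22022 identifiers. Replicates differed beyond counting noise (chi-square 18.7 and 19.8 times its degrees of freedom in EF and noEF).

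The 55 genes, their grouping and all other lists were chosen with earlier results of these data known. Values per library are given for the 2 genes with the smallest p in each group, for Cdk1, Ccnb1, Top2a, Mki67 and Ncapg2, for every gene that did not pass, and for the genes of the other mitotic lists with the smallest p. The values of Espl1 per library were added after they were seen.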

Additional observations from a re-analysis of the deposited data

How the results depend on the processing

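Of the 38 called mitotic genes, 22 kept their call in all 13 alternatives and 16 lost it in at least 1, while 10 of the 17 others gained one in at least 1. No gene that was called in either analysis changed sign. Leaving out 1 library in turn gave 24 to 41 higher and in each case 1 lower of the 55, with medians of 0.59 to 0.67, and 217 to 790 higher and 337 to 1065 lower genes among all tested. A group left with 1 library was assumed to vary like the other. With library totals in place of TMM, 43 of the 55 were higher, and of all genes 1138 were higher and 505 lower, against 546 and 712 with TMM. Without a filter on low counts 45 of the 55 were higher, and 915 and 1203 of 17318 genes were called. RLE size factors gave 37, DESeq2 37, limma-voom 38 and a minimum of 1 CPM in any 2 libraries 41 higher genes of the 55. The replicate numbers are those of the sample titles, and EF 2 has the library name E3, so the library names themselves pair EF 1 with noEF 1 alone. Deviations of libraries with the same title number from their group means had r = -0.09 over genes, which does not pair them. With the replicate number as a block, 35 of the 55 were higher (Incenp and Ncapd3 lost their call), and 410 genes of all tested were higher and 568 lower. After correction for exon length (all annotated exons of a gene joined) and GC content, 38 of the 55 were higher, with a median of 0.57. Cenpf and Ncapd3 were lost (edgeR adjusted p = 0.0847 and 0.0593) and Aurka, Ube2c and Cdca3 gained. With that correction and the replicate block together, 32 were higher, and 283 genes of all tested were higher and 381 lower. The cause of these changes was not tested. Of the 55 genes, 18 averaged under 20 CPM, and 10 of these did not pass.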
